A study of Mus musculus with 14 samples.

Results

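The genes described here are those of small nucleolar RNAs (snoRNAs) in mouse liver after sleep deprivation. They were taken as the probe sets whose platform annotation gave exactly 1 gene symbol, beginning with Snord or Snora and a digit, with the brightest probe set kept for each gene. This gave 73 genes of 22180 tested, of which 47 were box C/D genes (Snord) and 26 were box H/ACA genes (Snora). Livers of male mice of the inbred strain C57BL/6J were hybridised to Affymetrix whole-transcript arrays. There were 7 samples of a sleep deprivation group (numbers 1, 2, 3, 5, 6, 10 and 13) and 7 control samples (numbers 4, 7, 8, 9, 11, 12 and 14). Each is called a mouse here by its number, although the titles do not say that each came from its own animal. The title of the study gives the deprivation as 6 h. Its design text names several ways of disturbing sleep without saying which was used for these arrays, and the age, feeding state and time of collection of the mice are not stated there.

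SnoRNAs are short nuclear RNAs that guide chemical changes of ribosomal RNA in the nucleolus. Box C/D snoRNAs direct methylation of ribose, and box H/ACA snoRNAs direct the conversion of uridine to pseudouridine, while a few members of both families serve the cutting of the ribosomal RNA precursor instead. In mammals most are cut out of introns of other genes, their hosts, many of which encode ribosomal or nucleolar proteins or non-coding RNAs.

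Values are log2 levels of probe sets, so that a difference of 1 is a doubling. Differences are sleep-deprived minus control throughout, and a gene is called when limma's p-value, adjusted by Benjamini-Hochberg over all 22180 genes, is under 0.05. Array medians over all probe sets lay between 3.44 and 3.49. The level of a probe set depends on its probes and does not rank genes by abundance. The annotated snoRNAs were 48 to 221 bases long, with a median of 68 for box C/D and 118.5 for box H/ACA genes. RNA was extracted on silica columns of a kind known to hold short RNAs poorly, so that a snoRNA probe set may read the mature RNA, its precursor or both, which cannot be told apart here. Hepatocyte markers were bright on every array. Their mean level was 11.15 to 11.33 in sleep-deprived and 11.09 to 11.22 in control livers. Of 25 markers listed for 6 liver cell types, 4 were higher (Cps1 and Apoa1 of hepatocytes, Lyve1 of sinusoidal endothelium and Sox9 of bile duct cells) and 1 was lower (Cd79a of B cells). The mean of the endothelial list was 7.63 to 8.15 in sleep-deprived and 7.42 to 7.81 in control livers, and that of bile duct cells 4.00 to 4.68 in sleep-deprived and 4.00 to 4.18 in control livers. Their part in the results was not tested. In whole liver, fewer cells of a type and less RNA per cell cannot be told apart.

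No snoRNA gene passed the threshold. Of the 73 genes, 0 were called higher and 0 lower, whereas 8.5% of all genes were called (3.88% higher and 4.62% lower, limma). At an unadjusted p under 0.05 there were 4 snoRNA genes, 3 higher and 1 lower, or 1 of the 47 box C/D and 3 of the 26 box H/ACA genes. The share at that level was 19.4% over all genes. The values of the groups overlapped in every one of the 73 genes, while 3.13% of all genes showed no overlap.

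The differences were small in both families. In box C/D genes they ran from -0.19 (Snord43) to 0.34 (Snord91a), with a median of 0.062. In box H/ACA genes they ran from -0.32 (Snora20) to 0.36 (Snora62), with a median of 0.075. The median of all genes was -0.0048. Between their quartiles, the box C/D differences lay between 0.0015 and 0.11, and the box H/ACA differences between -0.086 and 0.19. The 95% interval of the difference lay wholly between -0.5 and 0.5 in 44 box C/D genes and 15 box H/ACA genes, and between -1 and 1 in all 73. A doubling or halving was thus outside the interval of each gene. How small a difference lay outside it varied between genes, and some intervals reached beyond -0.5 or 0.5.

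**Figure D1:**
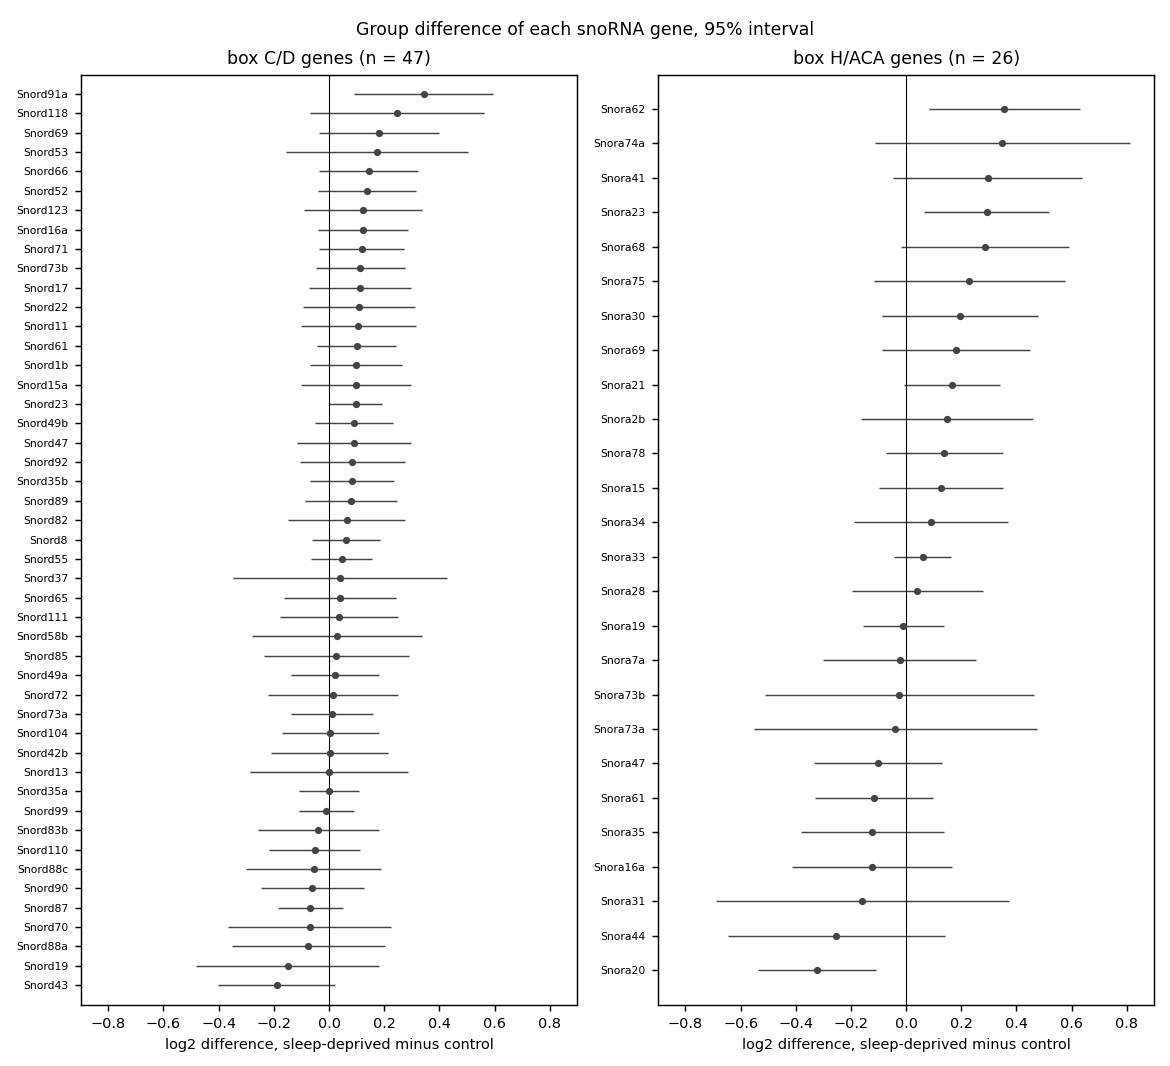
Log2 difference (sleep-deprived minus control, x axis) of each of the 73 snoRNA genes with its 95% limma interval, box C/D genes on the left and box H/ACA genes on the right. Every point lies between -0.32 and 0.36, and all but 4 of the intervals cross 0.

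More box C/D genes had a positive difference than a negative one, 36 of 47 (76.6%), against 15 of 26 (57.7%) for box H/ACA genes and 48.4% of all genes. Without control mouse 7 the count was 24 of 47 box C/D genes with a median of 0.0043, and without any other single mouse it was 30 to 39 of 47. With the sample number of the titles as a covariate it was 23 of 47 with a median of -0.0038. The sample numbers are not balanced between the groups, and the cause of these shifts was not tested. For box H/ACA genes the median was 0.0093 with the covariate and lay between 0.037 and 0.13 without 1 mouse.

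The brightest box C/D probe sets belonged to Snord99, Snord104, Snord55 and Snord16a. Snord99, in the span of the non-coding host Snhg12, had levels from 11.54 to 11.73 with a median of 11.69 in sleep-deprived livers, and from 11.53 to 11.81 with a median of 11.63 in controls. The ranges nearly coincide, and the log2 difference was -0.0099 ± 0.048 (moderated SE, as below). Snord104 had levels from 10.99 to 11.64 with a median of 11.29 in sleep-deprived livers, and from 11.14 to 11.54 with a median of 11.36 in controls, a difference of 0.0052 ± 0.085. Snord55 differed by 0.046 ± 0.053 and Snord16a, inside the ribosomal protein gene Rpl4, by 0.12 ± 0.078. In Snord16a the sleep-deprived livers lay between 10.30 and 10.52, and the controls between 9.81 and 10.48. Its lowest value was that of control mouse 7.

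Box C/D snoRNAs that serve the cutting of ribosomal RNA or other special tasks were also without a call. Snord118 (U8), known for its role in maturation of the large subunit RNA, had levels from 4.16 to 4.96 with a median of 4.33 in sleep-deprived livers, and from 3.79 to 4.84 with a median of 4.28 in controls. The groups overlapped over most of their range, with a difference of 0.25 ± 0.15 (limma, adjusted p = 0.426). Snord13 (U13), needed in human cells for acetylation of the small subunit RNA, averaged 9.15 ± 0.34 in sleep-deprived and 9.15 ± 0.28 in control livers (SD, n = 7 each). Its difference was 0.00019 with a 95% interval from -0.29 to 0.29. Snord22 (U22), known from frog oocytes for small subunit RNA processing, had levels of 10.20 to 10.60 in sleep-deprived livers and 9.69 to 10.50 in controls, a difference of 0.11 ± 0.096. Snord35a, inside Rpl13a and one of a group of snoRNAs tied to fatty acid stress in cultured cells, averaged 9.67 ± 0.10 in sleep-deprived and 9.67 ± 0.10 in control livers (SD, n = 7 each). The interval of its difference, from -0.11 to 0.11, was among the narrow ones. Snord47, in the span of the growth-arrest transcript Gas5, differed by 0.092 ± 0.099.

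The single box C/D gene with an unadjusted p under 0.05 was Snord91a, named after its values were seen and inside the ribosome maturation gene Tsr1. Its levels ran from 2.01 to 2.91 with a median of 2.34 in sleep-deprived livers, and from 1.89 to 2.45 with a median of 2.02 in controls. The upper sleep-deprived livers lay above all controls and the lowest lay within them. The difference was 0.34 ± 0.12 (limma, adjusted p = 0.0903), on a probe set that was dim on all arrays. Leaving out sleep-deprived mouse 10 brought its adjusted p to 0.0338, and leaving out control mouse 9 to 0.0382. It rose to 0.189 without sleep-deprived mouse 5 and to 0.277 with the sample number as a covariate (limma).

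In box H/ACA genes the errors were larger, with a median SE of 0.13 against 0.095 in box C/D genes and 0.080 over all genes. Snora33, inside Rps12, was the brightest, with levels from 12.06 to 12.28 and a median of 12.23 in sleep-deprived livers, and from 11.90 to 12.25 and a median of 12.17 in controls. Its difference was 0.060 ± 0.050, while a dimmer probe set of Snora33 gave -0.14 ± 0.15. Snora16a, inside Snhg12, differed by -0.12 ± 0.14 and Snora21, inside Rpl23, by 0.16 ± 0.083. Snora75, inside the nucleolin gene Ncl, differed by 0.23 ± 0.17 on a dim probe set. Snora74a, inside Snhg4, had levels of 5.05 to 6.28 in sleep-deprived and 4.29 to 6.00 in control livers and a difference of 0.35 ± 0.22. None of these genes had an unadjusted p under 0.05.

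The 3 box H/ACA genes with an unadjusted p under 0.05 were Snora20, Snora23 and Snora62, of which the first 2 are named because of that p. Snora20, inside the chaperonin gene Tcp1, had levels from 4.33 to 4.98 with a median of 4.62 in sleep-deprived livers, and from 4.72 to 5.10 with a median of 4.92 in controls. Of the sleep-deprived livers, 4 were below the lowest control. The difference was -0.32 ± 0.10 (limma, adjusted p = 0.0557), the smallest adjusted p of all snoRNA genes. Its side of the threshold changed in several settings, with adjusted p = 0.0474 with array weights, 0.0329 among the brighter genes alone, 0.0359 when sleep-deprived mouse 5 was left out, 0.0168 when mouse 6 of that group was, and 0.0381 when control mouse 4 was. In others its adjusted p rose, to 0.156 with the sample number as a covariate and 0.128 when sleep-deprived mouse 1 was left out (limma).

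Snora62, inside the ribosomal protein gene Rpsa, had levels from 7.86 to 8.49 with a median of 8.30 in sleep-deprived livers, and from 7.44 to 8.23 with a median of 7.94 in controls. The difference was 0.36 ± 0.13 (limma, adjusted p = 0.111), and 6 of 7 sleep-deprived livers were above the control mean. Snora23, inside the nuclear import gene Ipo7, had levels from 7.38 to 7.76 with a median of 7.56 in sleep-deprived livers, and from 6.80 to 7.57 with a median of 7.46 in controls. All 7 sleep-deprived livers were above the control mean, which the low values of controls 8, 9 and 11 pulled down. The difference was 0.29 ± 0.11 (limma, adjusted p = 0.112).

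The larger part of the variation lay between mice of the same group. The mean level over the box C/D genes was 7.42 ± 0.10 in sleep-deprived and 7.37 ± 0.13 in control livers (SD, n = 7 each), and that over the box H/ACA genes was 6.06 ± 0.19 in sleep-deprived and 6.00 ± 0.14 in control livers. Within each group the box C/D mean ranged more widely than the groups differed. It ran from 7.24 (mouse 10) to 7.53 (mouse 1) in sleep-deprived livers, and from 7.16 (mouse 7) to 7.55 (mouse 4) in controls. The box H/ACA mean ran from 5.77 (mouse 10) to 6.30 (mouse 6) in sleep-deprived livers, and from 5.84 (mouse 14) to 6.24 (mouse 4) in controls. The gap between the families on the same array, box C/D minus box H/ACA, was 1.36 ± 0.14 in sleep-deprived and 1.37 ± 0.098 in control livers. It thus differed by less than its spread between mice. No test was run on these means, since they summarise chosen genes.

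**Figure D2:**
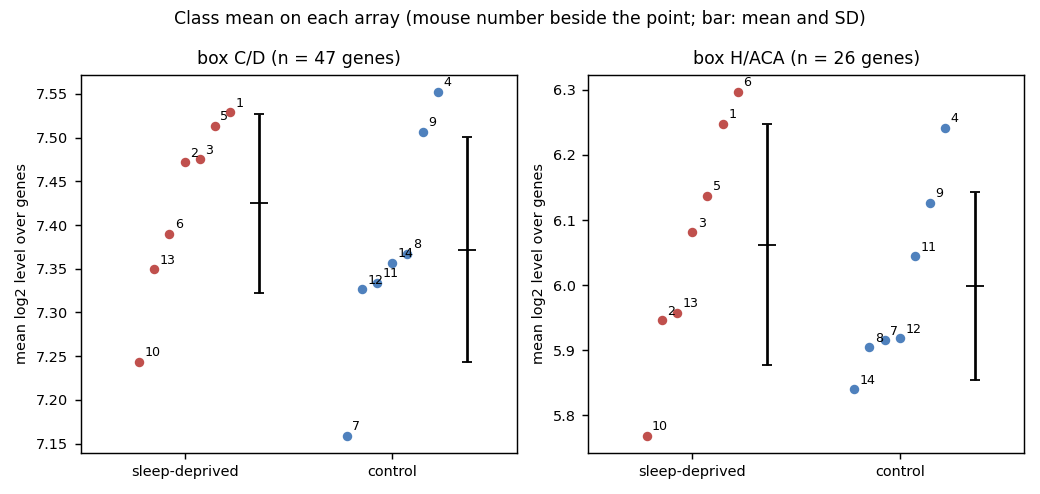
Mean log2 level over the 47 box C/D genes (left) and the 26 box H/ACA genes (right) on each array, with the mouse number beside each point and a bar for the mean and SD of the 7 arrays of a group. Sleep-deprived mouse 10 and control mouse 7 were the lowest of their groups for box C/D genes, and the groups overlap over most of their range.

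Box C/D genes moved up and down together from mouse to mouse. Sleep-deprived mouse 10 had the lowest value of its group in 27 of 47 box C/D genes and control mouse 7 in 26 of 47. Each of these mice was below the mean of its own group in 43 of the 47. Control mice 4 and 9 were each above the mean of the control group in 40 of 47. For box H/ACA genes, sleep-deprived mouse 10 was lowest of its group in 12 of 26 and control mouse 7 in 4 of 26, while sleep-deprived mouse 6 was highest in 12 of 26. The mean over 5 small Cajal body RNA genes, which guide the same kinds of change on spliceosomal RNAs, was also lowest in mouse 10 among sleep-deprived livers (6.57) and in mouse 7 among controls (6.54). Over the measured host genes, the mean was 7.04 in sleep-deprived mouse 10 and 6.98 in control mouse 7, inside the range of the other mice of each group. What set these arrays apart was not tested.

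As a description, deviations from the group mean over the 14 arrays had a mean correlation of 0.34 between pairs of box C/D genes (1081 pairs), 0.16 between pairs of box H/ACA genes (325 pairs) and 0.0021 between pairs of all genes. A shared array, RNA sample and normalization lie behind all such pairs. For snoRNA genes inside the same host the median correlation was 0.30 over 18 pairs. Among them, Snord49a, Snord49b and Snord65, all inside the non-coding gene 2410006H16Rik, correlated at 0.82 to 0.87. Snora73a and Snora73b correlated at 0.98. They are known as closely similar copies and lie in the same host, and whether their probes read each other's RNA was not tested. Snord11 and Snord70, both inside Nop58, were at -0.042.

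**Figure D3:**
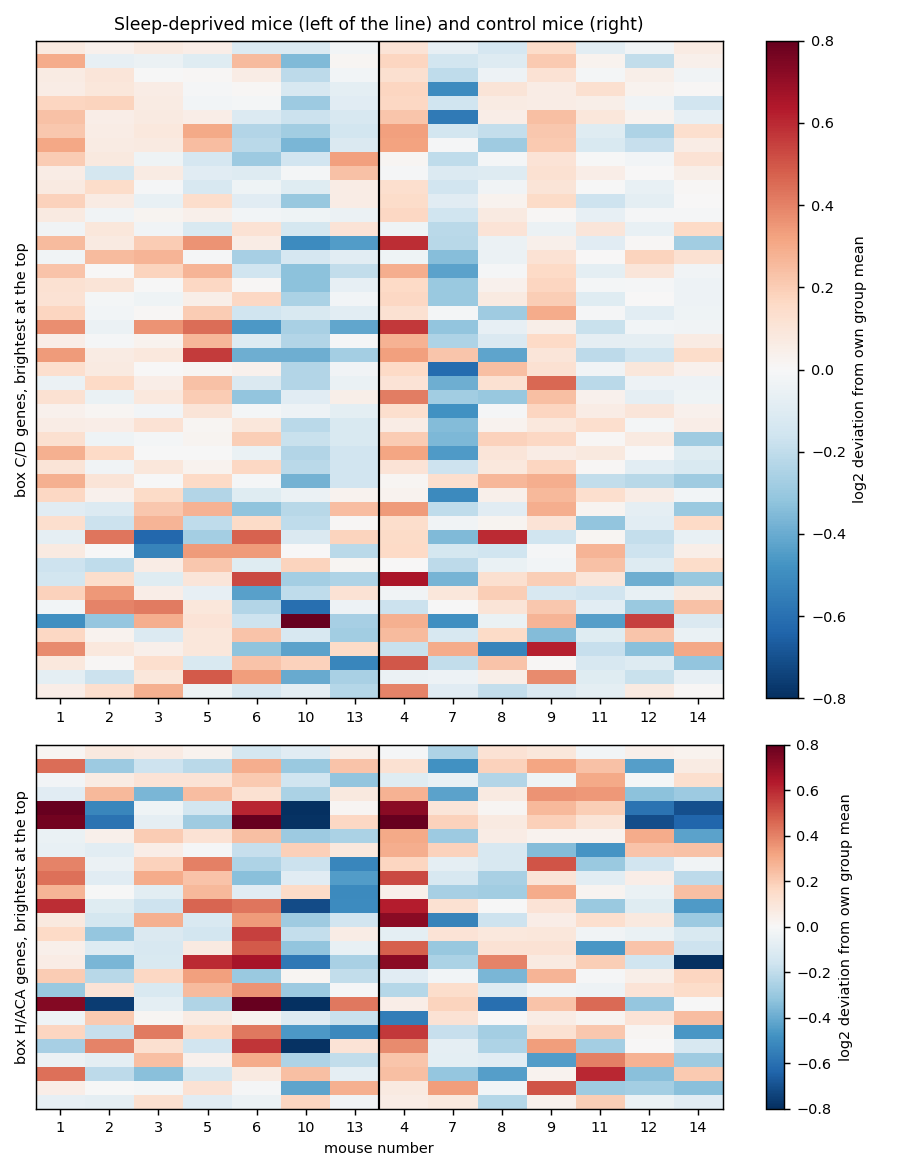
Deviation of each snoRNA gene (rows, brightest at the top) from the mean of its own group on each array (columns, mouse numbers, sleep-deprived mice left of the line), in log2 units with colours ending at -0.8 and 0.8. The columns of sleep-deprived mouse 10 and control mouse 7 are mostly blue in the box C/D panel, where each was below its group mean in 43 of 47 genes.

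Several host genes rose while the snoRNA genes inside them were not called. Of the 73 snoRNA genes, 70 lay in the span of a larger gene in RefSeq. Of these, 57 lay in one of 43 hosts that were measured, meaning that a probe set was annotated to them. Of these hosts, 6 rose and 0 fell (limma, against 3.88% and 4.62% of all genes), and 11 of 43 had an unadjusted p under 0.05, against 19.4% of all genes. Of the 43 hosts, 4 were dimmer than the median gene, and brighter genes were called more often. In a fit of the genes brighter than the median alone, 2259 were called, against 1886 in the fit of all genes (limma). The hosts were not compared with genes of like brightness. The roles of the 6 hosts that rose lie mostly in ribosome production, as do those of many hosts that were not called. Among the latter were the ribosomal protein genes Rpl4, Rpl32 and Rps12 and the nucleolin gene Ncl. Nop56 and Nop58 encode core proteins of the box C/D particle itself, Gnl3 encodes nucleostemin, a nucleolar GTP-binding protein, Wdr43 a part of the complex that processes small subunit RNA, and Ipo7 an importin that carries ribosomal proteins to the nucleus. Snhg3 is a non-coding host transcript. Between them they hold 10 of the snoRNA genes, most of them named after values were seen. Those 10 had a median difference of 0.030.

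The start regions of the 6 hosts that rose are shown because a host and its intronic snoRNAs share this start. They are RefSeq sequences on the GRCm38.p6 build, from 60 bases before the annotated start in lower case to 20 bases from the start onwards in capitals, 5′ to 3′ on the strand of the gene. They lie at chr4:132353667-132353746 on the minus strand (Snhg3), chr1:59684946-59685025 on the plus strand (Nop58), chr2:130274352-130274431 on the plus strand (Nop56), chr14:31019112-31019191 on the minus strand (Gnl3), chr17:71616155-71616234 on the plus strand (Wdr43) and chr7:110018255-110018334 on the plus strand (Ipo7).
Snhg3: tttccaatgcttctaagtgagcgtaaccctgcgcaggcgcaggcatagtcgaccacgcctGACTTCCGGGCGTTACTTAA
Nop58: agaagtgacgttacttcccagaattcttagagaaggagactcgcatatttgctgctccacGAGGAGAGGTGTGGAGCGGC
Nop56: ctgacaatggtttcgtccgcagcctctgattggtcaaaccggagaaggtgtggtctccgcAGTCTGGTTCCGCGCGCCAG
Gnl3: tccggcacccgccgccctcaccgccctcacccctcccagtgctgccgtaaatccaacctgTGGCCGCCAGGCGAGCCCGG
Wdr43: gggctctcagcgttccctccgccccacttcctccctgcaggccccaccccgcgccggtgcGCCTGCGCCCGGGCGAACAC
Ipo7: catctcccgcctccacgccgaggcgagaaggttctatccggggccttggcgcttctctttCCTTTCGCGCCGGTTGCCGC

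In the capitals, the start of Ipo7 is a C followed by pyrimidines only over the next 4 bases, the form of start known from many ribosomal protein genes, and the other 5 starts do not have it. At the annotated start this form was found in 2 of 44 hosts with an entry (4.55%) and in 2.49% of all genes in the table. The E-box CACGTG, which reads the same on both strands and is the core site of Myc and of the clock factors, was searched from 250 bases before to 50 bases after the start. It was found in Wdr43 and Ipo7, and in 4 of 30 measured hosts with an entry that did not pass (13.3%). Over all 44 hosts with an entry, measured or not, it was found in 11 (25%), and in 7.24% of all genes. Such matches describe the letters alone.

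Snhg3 had levels from 5.56 to 6.22 with a median of 6.00 in sleep-deprived livers, and from 4.88 to 5.60 with a median of 5.17 in controls. The groups met only at their edges, and the log2 difference was 0.74 ± 0.12 (limma, adjusted p = 0.000328). Inside it, Snora73a, a homologue of the RNA known as U17 that serves small subunit RNA processing, had levels from 6.74 to 8.33 with a median of 7.46 in sleep-deprived livers, and from 6.86 to 8.37 with a median of 7.67 in controls. Both groups covered the same wide range, and the difference was -0.039 with a 95% interval from -0.55 to 0.47. Snora73b gave -0.025 with an interval from -0.51 to 0.46.

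Nop58 had levels from 6.94 to 7.50 with a median of 7.22 in sleep-deprived livers, and from 6.35 to 6.94 with a median of 6.58 in controls. The lowest sleep-deprived liver lay above the highest control by less than the rounding shows, and the difference was 0.57 ± 0.092 (limma, adjusted p = 0.000369). Of the snoRNA genes inside it, Snord11 had levels from 7.74 to 8.11 with a median of 7.99 in sleep-deprived livers, and from 7.25 to 8.11 with a median of 7.96 in controls, a difference of 0.11 ± 0.099. Snord70 had levels from 7.58 to 8.53 with a median of 8.04 in sleep-deprived livers, and from 7.62 to 8.37 with a median of 8.14 in controls, a difference of -0.070 ± 0.14. Both snoRNA genes overlapped between the groups over most of their range.

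**Figure D4:**
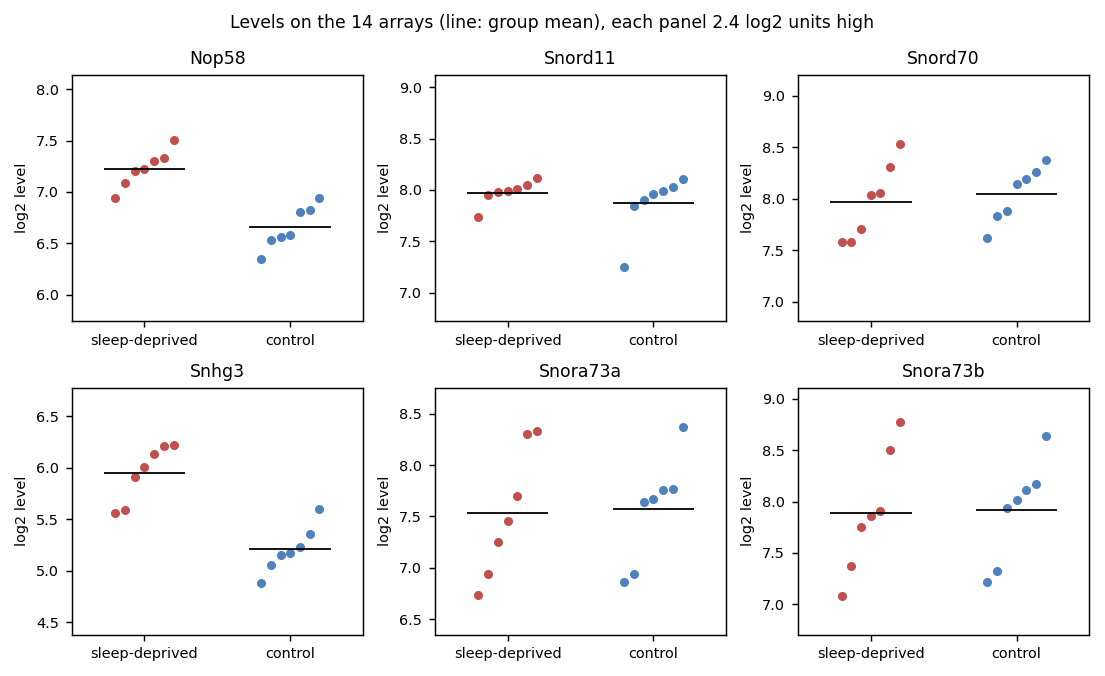
Log2 level of the hosts Nop58 and Snhg3 and of the snoRNA genes inside them on the 14 arrays, sleep-deprived livers at the left of each panel, with a line at each group mean and equally tall y axes. Nop58 lies at 6.94 to 7.50 in sleep-deprived and 6.35 to 6.94 in control livers, while its snoRNA genes Snord11 and Snord70 overlap between the groups.

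Nop56 had levels from 7.07 to 7.55 with a median of 7.28 in sleep-deprived livers, and from 6.53 to 6.92 with a median of 6.70 in controls. The difference of 0.54 ± 0.074 (limma, adjusted p = 7.43e-05) came from its brightest probe set. Its other probe sets gave 0.034 ± 0.17 and 0.089 ± 0.086, and with the probe sets averaged the gene did not pass (0.22, adjusted p = 0.0938). Snord110, inside Nop56, had levels from 9.66 to 10.28 with a median of 9.91 in sleep-deprived livers, and from 9.80 to 10.12 with a median of 10.00 in controls. Its sleep-deprived values lay on both sides of the controls, with a difference of -0.052 ± 0.078.

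Gnl3 rose by 0.50 ± 0.084 (limma, adjusted p = 0.000519), with levels from 6.89 to 7.48 in sleep-deprived and from 6.44 to 6.92 in control livers. Inside it, Snord19 differed by -0.15 ± 0.16 on a dim probe set and Snord69 by 0.18 ± 0.10. Wdr43 rose by 0.33 ± 0.076 (limma, adjusted p = 0.00843), and its Snord53 and Snord92 differed by 0.17 ± 0.16 and 0.085 ± 0.092. Ipo7 rose by 0.25 ± 0.058 (limma, adjusted p = 0.00745), and here the snoRNA gene inside, Snora23, had a point estimate of the same size as its host.

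**Figure D5:**
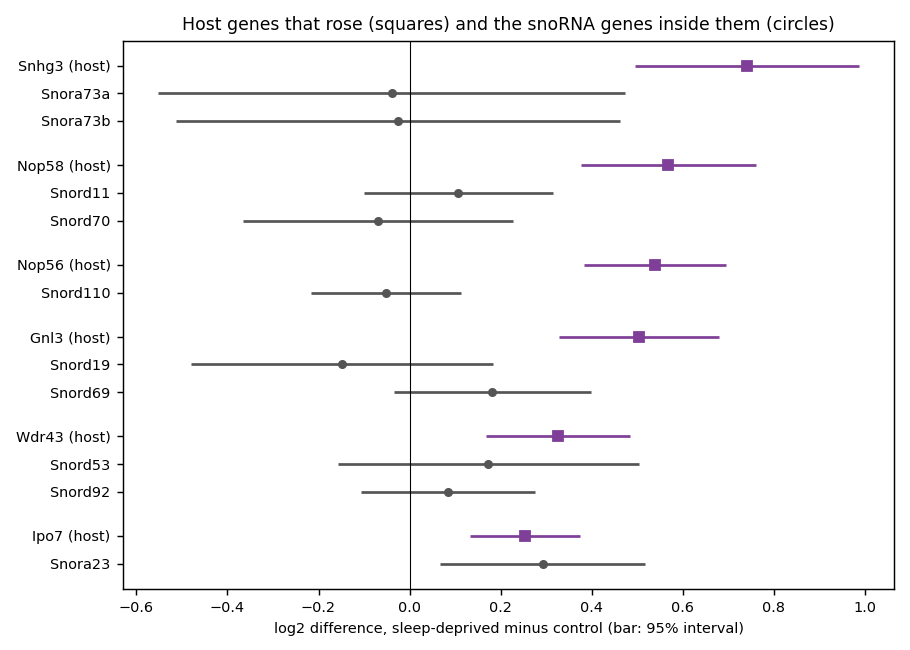
Log2 difference (sleep-deprived minus control) with 95% limma interval of the 6 host genes that rose (squares) and of the 10 snoRNA genes inside them (circles), grouped by host. The host intervals lie above 0, and of the snoRNA intervals that of Snora23 does.

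That a host was called and its snoRNA genes were not does not show that they differ. The gap between host and snoRNA gene on the same array was therefore compared between the groups for all 57 pairs, with an exact two-sided permutation test over the 14 arrays, whose smallest possible p is 0.000583. After Benjamini-Hochberg adjustment over the 57 pairs, 0 passed, and 7 had an unadjusted exact p under 0.05. The smallest belonged to Nop56 and Snord110, whose gap moved by 0.59 ± 0.11 (SE) in favour of the host (exact p = 0.00117, adjusted 0.0664) with all 7 sleep-deprived livers above the control mean. Among hosts that were not called, the gap of Tcp1 and Snora20 moved by 0.41 ± 0.11 (exact p = 0.00233, adjusted 0.0664). It moved in favour of the snoRNA gene for Rpsa and Snora62, by -0.41 ± 0.12 (exact p = 0.00816, adjusted 0.116), and for Nop53 and Snord23, by -0.19 ± 0.066 (exact p = 0.0134, adjusted 0.133). Among called hosts, for Gnl3 and Snord19 it moved by 0.65 ± 0.19 (exact p = 0.00466, adjusted 0.0886), for Nop58 and Snord11 by 0.46 ± 0.15 (exact p = 0.0140, adjusted 0.133) and for Nop58 and Snord70 by 0.64 ± 0.24 (exact p = 0.0227, adjusted 0.185). For Snhg3 and Snora73a the gap moved by 0.78 ± 0.36 (exact p = 0.0554), and for Ipo7 and Snora23 by -0.039 ± 0.13 (exact p = 0.777). Rpsa had 2 probe sets, of which the brighter was used. While Nop58 and its Snord11 have probe sets of close numbers, that of Rpsa is numbered far from that of Snora62. The same holds for further hosts, including Rps3a1, Rpl3, Rpl23a and Rpl39, and the snoRNA genes inside them. Whether these probe sets read the host locus itself was not tested, so such pairs may not compare a snoRNA gene with its own host.

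Hosts that did not pass included those of the brightest snoRNA probe sets. Rpl4 differed by -0.027 ± 0.043, Rps12 by 0.0038 ± 0.055, Rpsa by -0.054 ± 0.063, Ncl by -0.071 ± 0.058, Snhg12 by -0.040 ± 0.099, Snhg1 by 0.050 ± 0.097 and Snhg4 by 0.026 ± 0.10. For Rpl4 and Rpsa with 2 probe sets each, and Rps12 with 8, these values are of the brightest alone. The 47 snoRNA genes inside hosts that did not pass had a median difference of 0.040. Across all 57 pairs, the median correlation of deviations between a snoRNA gene and its host over the 14 arrays was -0.065, given as a description.

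Transcripts of genes for proteins that bind or assemble snoRNAs rose in part, while the proteins themselves were not measured. Of 24 listed symbols, which hold Snu13 also under its older name Nhp2l1, 21 were measured. Of these 21 genes 3 rose and 1 fell (limma, against 3.88% and 4.62% of all genes), and 2 were dimmer than the median gene. Those that rose include Nop56 and Nop58, already counted among the hosts, and Nop56 rose on its brightest probe set alone. In the box C/D particle, beside Nop56 and Nop58, Snu13, which binds the RNA's kink, was at 0.10 ± 0.050 (limma, adjusted p = 0.270), and the methyltransferase gene Fbl was not analysed here. Of the 4 core genes of the box H/ACA particle 0 passed, and 0 had an unadjusted p under 0.05. The pseudouridine synthase gene Dkc1 was at 0.11 ± 0.090, Nhp2 at 0.051 ± 0.067, Nop10 at 0.10 ± 0.049 and Gar1 at -0.020 ± 0.088. No test of the difference between the particles was made.

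Of the 14 measured genes of assembly and maturation, Nolc1 rose, which encodes a nucleolar chaperone of both kinds of particle. Its levels ran from 7.06 to 7.45 with a median of 7.27 in sleep-deprived livers, and from 6.37 to 7.09 with a median of 6.65 in controls, a difference of 0.59 ± 0.11 (limma, adjusted p = 0.00112). Parn, a ribonuclease known in human cells to trim the ends of box H/ACA RNAs, fell, with a difference of -0.21 ± 0.063 (limma, adjusted p = 0.0370). When each of the 14 mice was left out in turn, its adjusted p passed the threshold no more in 9 cases and was at most 0.0853.

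A further 43 probe sets carried a snoRNA symbol together with the symbol of another gene, often the host, and were left out above. In a fit of all 41345 probe sets 1 of the 43 was higher and 0 were lower (limma), against 1.71% and 2.05% of all probe sets, and 17 had an unadjusted p under 0.05, against 13.9%. Of those 17, 16 carry the symbols Gm26504, Snord116l1 and Snord116l2, of an imprinted box C/D cluster known for its expression in brain. These 16 probe sets held the same values on every array, with a difference of -0.36 (limma, adjusted p = 0.101), and so count as 1 measurement.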

How the data were processed

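Liver RNA of 14 samples, 100 ng each, was labelled with the Affymetrix WT PLUS kit, per the labels' protocols. The authors summarised each probe set with RMA, per the submitters' processing notes, and deposited log2 values. Neither the version, the annotation nor the genome build is stated there. Groups came from the sample titles. The titles do not say that each sample came from its own mouse, so p-values set the group difference against the spread between these samples. Precision depends on that spread and on how many arrays there are.

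Of 41345 probe sets, 23521 had 1 gene symbol, 1814 had several and 16010 were unnamed here. On the brightest per gene, without a filter on dim genes, lmFit and eBayes (intensity trend, two-sided) of limma 3.58.1 were run under R 4.3.3. The steps were tested on simulated data. Members, lists and tests were chosen with earlier results of these data known. Hosts are the shortest larger gene of RefSeq (GRCm38.p6) whose span holds the snoRNA gene. The table gives no strand, and 6 snoRNA genes lay in several genes. No sequence of a snoRNA was used here. SnoRNA genes named were those called, the 4 brightest of each family and 24 fixed genes (10 measured), with the hosts of these. A further 10 were named for their host or their unadjusted p. Alternatives were 9 other settings and leaving out each of the 14 mice.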

Additional observations from a re-analysis of the deposited data

Results flagged for a closer look

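Single arrays standing apart from the other 6 of their group were looked for with Dixon's test in 98 groups of 7 values (the genes named and the family means), of which 9 passed its 95% critical value. Chance flags about 1 in 20 groups, but these groups are not independent, since box C/D genes moved together from mouse to mouse. The count flagged can therefore not be judged against that share. Control mouse 7 was low in 4 of them, with log2 levels of 9.81 in Snord16a (the other controls from 10.32), 11.90 in Snora33 (from 12.12), 9.69 in Snord22 (from 10.20) and 7.25 in Snord11 (from 7.84). Sleep-deprived mouse 10 was low in Snord55 at 10.88 (the other sleep-deprived mice from 11.07). Control mouse 4 was high in Snord13 at 9.74 (others up to 9.19), and control mouse 9 in Snord91a at 2.45 (others up to 2.12). Among hosts and proteins, sleep-deprived mouse 2 was high in Snhg1 at 5.98 (others up to 5.69), and sleep-deprived mouse 3 was low in Gar1 at 4.89 (others from 5.18). Outside the genes analysed, 1 probe set with a snoRNA symbol and the symbol of another gene (Snord2 and Eif4a2) was higher in sleep-deprived livers. Its log2 difference was 0.35 (limma, adjusted p = 0.0175), and it cannot be assigned to either gene. A probe set with the symbols Snora81 and Eif4a2 was at 0.19 and was not called (limma, adjusted p = 0.808).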

How the results depend on the processing

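Over 23 alternatives, the number of box H/ACA genes called lower became 1 with array weights, 1 among the brighter genes alone (both Snora20) and 1 with the sample number as a covariate (Snora44). In fits without 1 mouse it ranged from 0 to 1, as did the numbers of box H/ACA genes called higher (Snora68 without control mouse 4) and of box C/D genes called higher (Snord91a without sleep-deprived mouse 10 or control mouse 9). No box C/D gene was called lower in any of these fits. The number of all genes called lay between 1541 and 2259. Of the calls of the hosts and proteins named, those of Nop56 (probe sets averaged) and Parn were lost. Beside the fits without 1 mouse, Parn lost its call without the eBayes trend (limma, adjusted p = 0.0503) and with arrays centred on their medians (0.0682). Among the 27 snoRNA genes named, 8 changed sign in at least 1 alternative, none of them called. No paired analysis was possible because the groups share no sample numbers. The median of all genes moved by at most 0.0072 from 0. The table holds no detection calls, and 10 snoRNA genes were dimmer than the median gene.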

Other observations

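Other small RNA genes on the same arrays were mostly without a call as well. Of 483 microRNA genes 3 were higher and 3 lower (limma), against 3.88% and 4.62% of all genes, with a median difference of -0.0089. Those with the smallest adjusted p were Mir344d-2, at 1.24 ± 0.14 (limma, adjusted p = 8.2e-06), Mir466h at 0.62 ± 0.12, Mir1948 at -0.56 ± 0.11 and Mir1933 at -0.53 ± 0.12. These probe sets read RNA from the locus, and whether that is the mature microRNA was not tested. Of the 5 small Cajal body RNA genes 0 were called and 0 had an unadjusted p under 0.05, with differences from -0.066 (Scarna8) to 0.094 (Scarna2). Of 5 small nuclear RNA genes 0 were called and 1 had an unadjusted p under 0.05. That 1 was Rnu12, at 0.15 ± 0.070. The set also held Rnu3a, a copy of the U3 RNA, itself a box C/D snoRNA that serves small subunit RNA processing, at 0.072 ± 0.15.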
